A study of Homo sapiens with 10 samples.

Results

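The comparison set cultured human t-hESC cells treated with VXN directly against the same line treated with BIX, gene by gene. It used 4 of the 10 RNA-seq libraries of the series, chosen by their sample titles: 2 of t-hESC with 10 µM of VXN and 2 of t-hESC with 1 µM of BIX. The other 6 libraries are 2 of t-hESC with the solvent DMSO, 2 of the colorectal cancer line HT29 with DMSO and 2 of HT29 with VXN. A treatment time of 48 hours stands in a label field that reads DMSO for every sample, so the compound and dose of each library rest on its title alone. The line t-hESC is labelled as pluripotent stem cells that have been transformed. It carries no further genotype in the labels. All 60651 gene rows of the count table were examined, and 22495 passed the filter on low counts and were tested.

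The abbreviation BIX is commonly used for a chemical that blocks G9a and GLP, enzymes encoded by EHMT2 and EHMT1. They place methyl groups on lysine 9 of histone H3, and the dimethylated form of that residue is found in silent chromatin. The labels give VXN as a code name only, and nothing is said here of its structure. The 1 pair of compounds was tested at doses that differ, so the compound and its dose cannot be told apart in any difference below.

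Total gene counts were 15302336 and 13137026 in the BIX libraries, 16295315 and 17232437 in the VXN libraries and 18095537 and 21128261 in DMSO. Levels are given in CPM, counts scaled to a common library size after normalization. Correlations of log2 CPM over 17585 genes were 0.994 between the BIX replicates, 0.995 between the VXN replicates and 0.986 to 0.988 between the compounds. The labels call the 2 libraries of a condition biological replicates without saying how they were separated, so each p-value covers just the variation among these libraries, which may be technical. Markers of pluripotent cells summed to 4802 and 4867 CPM under BIX and to 4455 and 4515 CPM under VXN, with 9 of 10 markers above 1 CPM in every t-hESC library. Markers of intestinal epithelium summed to at most 12.1 CPM in t-hESC, with 1 of 14 above 1 CPM. Summed fibroblast markers stood at 160 and 175 CPM under BIX, 127 and 128 under VXN and 126 and 129 under DMSO, and neural markers at 546 and 551, 523 and 534, and 537 and 560. Bulk RNA does not tell a smaller share of cells of one type from less RNA per cell.

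The compounds left different transcriptomes, mostly through many small differences. A gene is called, and is written as higher or lower under VXN, where edgeR's quasi-likelihood test gave an adjusted p under 0.05. By that rule 22.7% of the tested genes were called, 2600 higher under VXN (11.6%) and 2510 lower (11.2%). Of the called genes 4099, or 80.2%, differed by less than 1.5-fold. At 2-fold or more 205 were higher (0.911% of the tested genes) and 184 lower (0.818%), 1.73% together. On the higher side the direct contrast reaches genes of immediate early response and sterol synthesis and the mRNAs of the mitochondrial genome. On the lower side it reaches genes of glycolysis, extracellular matrix and H3K9 methylation.

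**Figure D1:**
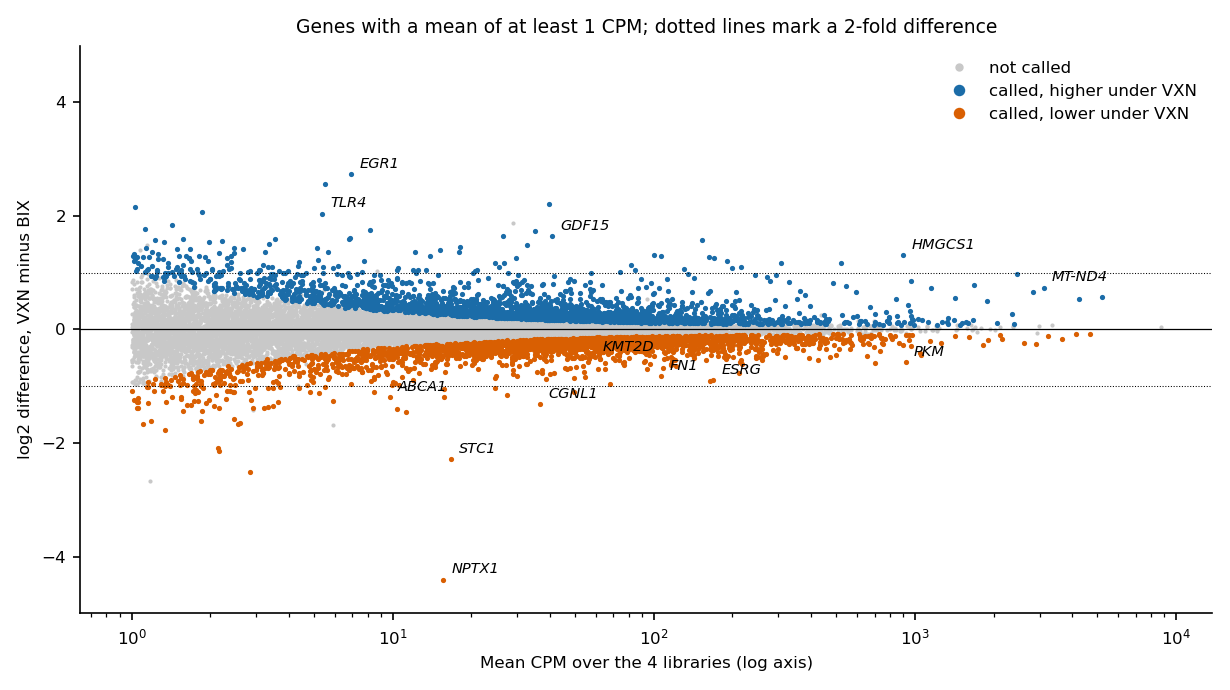
The plot of difference against level shows each gene that averages 1 CPM or more over the 4 libraries: its mean CPM on a log axis and its log2 difference, VXN minus BIX. Called genes are blue (higher under VXN) or orange (lower), most lie between the dotted 2-fold lines, and NPTX1 stands alone at -4.41. Of 17643 such genes 3 lie outside the vertical range: MAGED4, FAM156B and SLX1B.

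Well expressed genes are those averaging 4 CPM or more over the 4 libraries, and the immediate early genes among the largest differences toward VXN are described further on. TLR4, the innate receptor for bacterial lipopolysaccharide (chromosome 9, 117704403 to 117724735, GRCh38.p14), was at 8.55 and 8.75 CPM under VXN, 2.21 and 1.98 under BIX and 1.76 and 1.55 under DMSO. The VXN libraries were the high ones and did not overlap the others. The difference from BIX was 4.11-fold, or 2.04 ± 0.18 on the log2 scale (SE, edgeR adjusted p = 1.4e-14). IL21R, a cytokine receptor gene, followed at 11.6 and 13.8 CPM against 4.48 and 2.94 (log2 difference 1.76 ± 0.16).

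GDF15, a stress-induced secreted factor of the TGF-beta superfamily (chromosome 19, 18386158 to 18389176), was at 65.4 and 58.3 CPM under VXN, 20.7 and 18.8 under BIX and 12.6 and 15 under DMSO. Its levels stood in the order DMSO, BIX and VXN with no overlap, and it differed by 3.12-fold between the compounds (log2 1.64 ± 0.071). ARC, an activity-regulated gene, was at 39.2 and 40.6 CPM under VXN against 11.9 and 13.6 under BIX, with DMSO at 11.7 and 15. SHISA2, a regulator of Wnt and FGF receptors, was at 46.3 and 50.3 against 18.2 and 16.2 CPM. ICAM1, an adhesion receptor for leukocytes, was at 24.9 and 27.9 CPM under VXN, 9.59 and 9.83 under BIX and 7.97 and 7.16 under DMSO. In ARC, IL21R and SHISA2 the BIX libraries lay near those of DMSO, and the VXN libraries lay above both. GADD45B, a growth arrest gene, completed the group at 1.44 ± 0.18.

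The fitted difference of MAGED4 was the largest of all and is uncertain. MAGED4, a MAGE family gene on chromosome X, had 321 and 204 counts under VXN, 191 and 115 under DMSO and 0 and 0 under BIX. Its near-identical copy MAGED4B had 2044 and 1636 counts under BIX and 1930 and 2254 under VXN, and was not called (edgeR adjusted p = 0.621). The sources used here do not say how reads shared by the copies were counted, so no fold is given. The call of MAGED4 (edgeR adjusted p = 0.0359) was lost without VXN replicate 1 (0.0606), BIX replicate 1 (0.0925) or BIX replicate 2 (0.083), among other settings.

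The genes with the largest differences on the lower side have varied functions. STC1, which encodes the secreted hormone stanniocalcin, was at 5.98 and 5.42 CPM under VXN, 28.1 and 27.2 under BIX and 21.2 and 24.3 under DMSO. VXN was lowest, by 4.86-fold against BIX (log2 -2.28 ± 0.12, edgeR adjusted p = 1.26e-25). MBNL3, an RNA-binding splicing regulator (chromosome X, 132369320 to 132490035), was at 6.64 and 5.36 CPM under VXN, 17.3 and 15.5 under BIX and 7.64 and 7.21 under DMSO. Here BIX was the group that stood apart, and the difference was 2.75-fold (log2 -1.46 ± 0.12).

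GADD45G, a growth arrest gene, was at 5.5 and 5.87 CPM under VXN, 15.7 and 14.2 under BIX and 9.07 and 9.75 under DMSO. CGNL1, which encodes the junction protein paracingulin, was at 19.9 and 22.1, 52.3 and 52.7, and 36.4 and 35.1 CPM in the same order. Both genes had DMSO between the compounds without overlap. The endothelial receptor tyrosine kinase gene TIE1 (log2 -1.26 ± 0.17) and APELA, which encodes a peptide hormone of pluripotent cells (-1.19 ± 0.1), showed that order too. CD2 was at 4.9 and 5.76 CPM under VXN and 10.4 and 12.7 under BIX, with DMSO at 4.78 and 5.37. GRPR, a neuropeptide receptor gene, was at 3.29 and 3.27 against 7.19 and 7.05 CPM, with DMSO at 2.42 and 2.97. For CD2 and GRPR the BIX libraries were high and the VXN libraries lay at or just above DMSO. The actin nucleator gene COBL, LINC00678 and TSGA10IP differed by -1.04, -1.15 and -1.11.

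**Figure D2:**
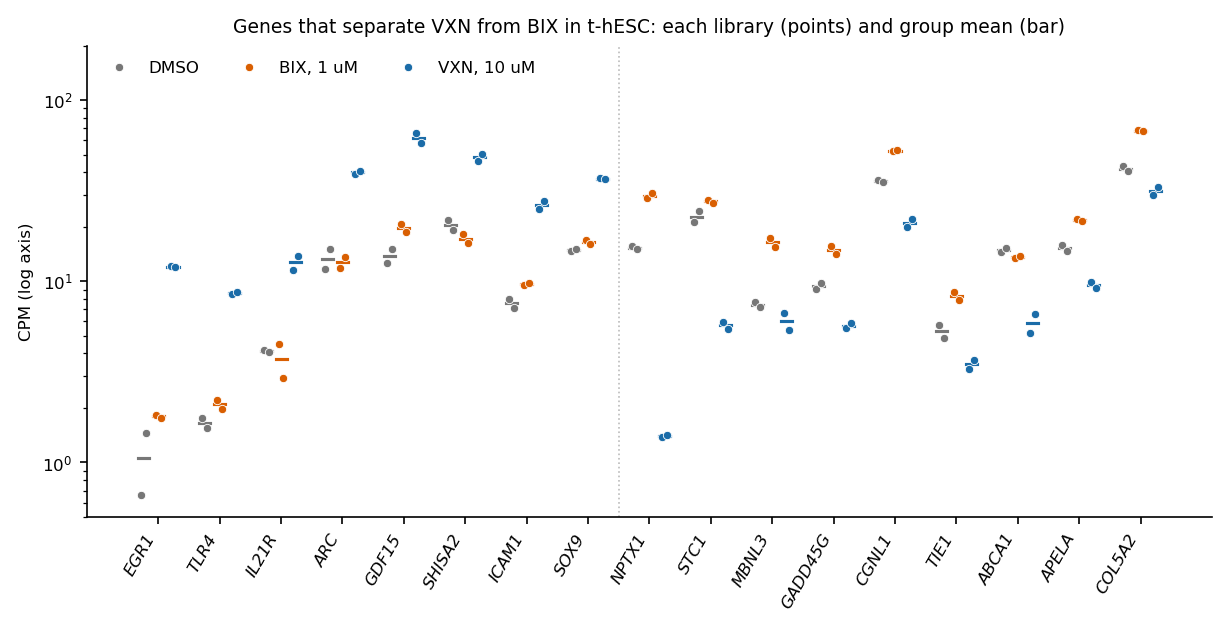
The plot of gene levels gives CPM on a log axis for 8 genes higher under VXN (left of the dotted line) and 9 lower, with a point for each library and a bar for the mean of each group of 2. VXN and BIX points do not overlap for any of them, which was a condition for naming the 15 highest and 15 lowest genes. DMSO lies near BIX for ARC, near VXN for MBNL3 and between the compounds for CGNL1.

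The gene lists behind the next paragraphs were described by counts and medians only. Over all 22495 tested genes the median log2 difference was 0, and of the 13835 well expressed genes 32.8% were called. Where a list below has no call in one direction, the counts at an unadjusted edgeR p under 0.05 and under DESeq2 were 0 too for ERK feedback, ribosomal protein, basement membrane and H3K9 genes. At an unadjusted p 1 H3K4 gene was higher and 1 NF-kappaB target lower, and DESeq2 called neither. List shares read against these values are shown in the plot of calls by gene list.

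**Figure D3:**
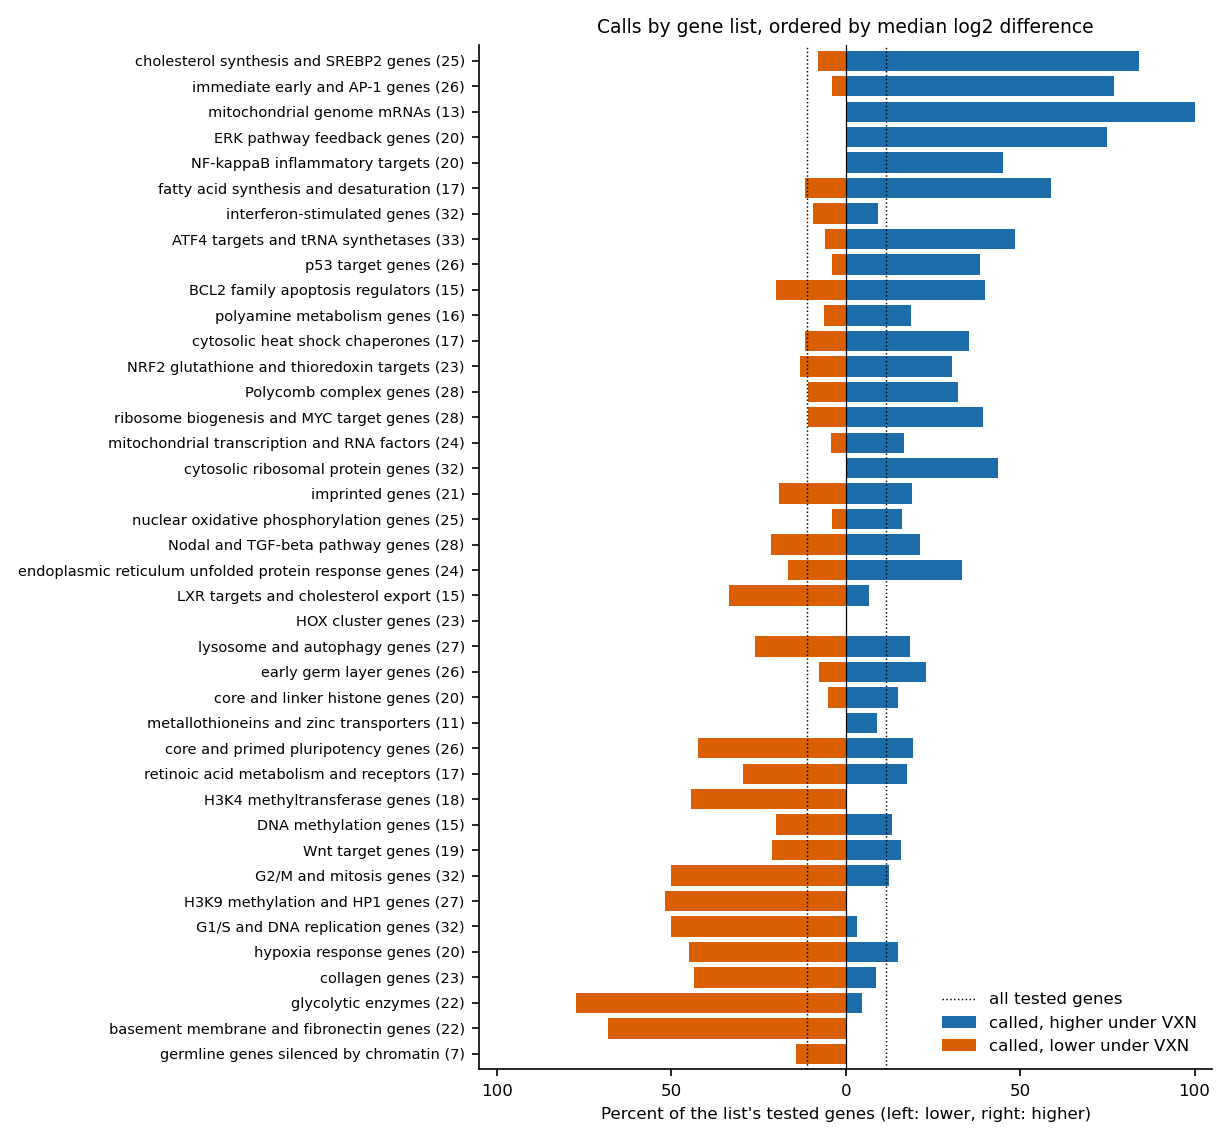
The plot of calls by gene list shows, for each list, the percent of its tested genes (number in brackets) called higher under VXN to the right and lower to the left, with dotted lines at the 11.6% and 11.2% of all tested genes. Lists are ordered by median log2 difference, from 0.82 for cholesterol synthesis at the top, and no HOX gene was called.

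Immediate early genes are switched on within minutes of growth factor or stress signals, without new protein synthesis, and many encode AP-1 and EGR transcription factors. EGR1, the zinc finger factor of this class, is a textbook target of serum response factor, which binds CArG boxes. The 150 bases before its start (chr5:138465329-138465478, GRCh38.p14, plus strand, RefSeq) are shown because they hold 2 such boxes, in capitals:
EGR1: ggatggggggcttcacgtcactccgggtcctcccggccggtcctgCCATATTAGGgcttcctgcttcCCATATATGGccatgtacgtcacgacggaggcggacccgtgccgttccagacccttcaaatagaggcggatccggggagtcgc

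Of 26 genes in the immediate early list 20 were higher under VXN, 1 was lower and 5 were not called, with a median log2 difference of 0.74. EGR1 was at 12.1 and 12 CPM under VXN, 1.83 and 1.76 under BIX and 0.659 and 1.46 under DMSO. JUNB, an AP-1 subunit, was at 9.09 and 11.6 against 3.59 and 3.16 CPM (log2 1.61 ± 0.15). VXN was the high group for both. JUND, another subunit, was at 140 and 137 against 97.8 and 92.6 CPM, and IER2 at 296 and 293 against 142 and 132 CPM. The smaller step of JUND (0.54 ± 0.044) came at a DMSO level of 87.8 and 88.4 CPM, and IER2 differed by 1.10 ± 0.038. CCN2, a matricellular target of Hippo signalling, was the exception at -0.42 ± 0.092. Its call was lost without BIX replicate 2 (edgeR adjusted p = 0.0514). A CArG box stood in the 250 bases before the start of 3 of the 20 list genes in the promoter table (15%), of 4 of 107 genes higher by 2-fold or more (3.74%) and of 1.53% of the 13610 tested genes in that table.

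ERK signalling induces its own inhibitors, the Sprouty proteins and dual-specificity phosphatases. Of 20 such feedback genes 15 were higher under VXN and none was lower, with a median of 0.38. The nuclear ERK phosphatase gene DUSP5 (chromosome 10, 110497907 to 110511533) was at 51.8 and 56.2 CPM under VXN, 15.6 and 16.8 under BIX and 21 and 20 under DMSO. Its BIX libraries lay below DMSO and its VXN libraries above, 3.34-fold apart (log2 1.74 ± 0.074). SPRY2, an inhibitor of receptor tyrosine kinase signalling, was at 141 and 151 against 78.9 and 79.3 CPM. PHLDA1, a pleckstrin homology gene, was at 121 and 122 against 77.6 and 77.9 CPM.

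Targets of NF-kappaB, an inflammatory transcription factor, were higher in 9 of 20 cases and lower in none (median 0.26). The count was 5 without BIX replicate 2. TLR4 and ICAM1 are in that list, and RELB, a subunit of NF-kappaB itself, was at 20.9 and 23 CPM under VXN, 9.08 and 7.56 under BIX and 12.1 and 11.2 under DMSO. RELB had BIX lowest and VXN highest with no overlap (log2 1.39 ± 0.1). IER3, which is also an immediate early gene, was at 26.5 and 30.2 against 14.7 and 12.5 CPM. Interferon-stimulated genes were near the background, with 3 of 32 higher (IFIT5, ISG15 and IRF7) and 3 lower, DDX60 and IFITM2 among them. Without VXN replicate 2 IRF7 and DDX60 lost their calls (edgeR adjusted p = 0.217 and 0.0512), and IRF7 lost its call without any 1 of 4 other t-hESC libraries too, at up to 0.505 without BIX replicate 2. ISG15, a ubiquitin-like antiviral protein, was at 17.9 and 19.6 against 13.7 and 13.6 CPM, and IFITM2, a membrane protein that restricts viral entry, at 64.5 and 66.6 against 83.7 and 85.1 CPM.

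Cells make cholesterol by the mevalonate pathway, whose enzymes are induced by the factor SREBP2 when sterols in the endoplasmic reticulum are low. SREBP2 acts beside NF-Y, which binds the letters CCAAT. The LXR nuclear receptors answer high sterol with the exporter genes ABCA1 and ABCG1. The 150 bases before the start of 3 synthesis genes (RefSeq, GRCh38.p14) show CCAAT or its reverse complement ATTGG in capitals, 1 copy in HMGCS1 (chr5:43313413-43313562, minus strand), 2 in MVD (chr16:88663092-88663241, minus strand) and 3 in MSMO1 (chr4:165327519-165327668, plus strand); MVD and MSMO1 were picked after their letters and values were seen:
HMGCS1: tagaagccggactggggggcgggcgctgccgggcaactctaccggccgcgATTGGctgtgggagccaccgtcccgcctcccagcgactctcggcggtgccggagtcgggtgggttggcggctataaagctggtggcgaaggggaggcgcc
MVD: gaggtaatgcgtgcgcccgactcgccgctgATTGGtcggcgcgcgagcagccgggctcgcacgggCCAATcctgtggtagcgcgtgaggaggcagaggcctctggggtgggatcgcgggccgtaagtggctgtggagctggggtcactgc
MSMO1: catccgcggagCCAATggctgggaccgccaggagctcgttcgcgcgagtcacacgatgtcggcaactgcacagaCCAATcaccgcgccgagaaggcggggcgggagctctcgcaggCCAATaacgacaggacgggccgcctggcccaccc

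Searched on both strands over the 250 bases before the start, CCAAT stood in 16 of the 19 cholesterol genes that the promoter table holds (84.2%) and in 40.3% of the 13610 tested genes it holds. The letters CACNCCAC, the core of many sterol response elements, stood in 4 of the 19 and in 6.78% of the tested genes. CCAAT stood in 45.8% of genes higher by 2-fold or more and in 46.4% of those lower by 2-fold or more. A match is a description of letters, not of a bound site.

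Of 25 genes of cholesterol synthesis and SREBP2 control 21 were higher under VXN, 2 were lower and 2 were not called, at a median of 0.82. MVD, a decarboxylase of the mevalonate pathway, was at 139 and 146 CPM under VXN, 63.6 and 51.1 under BIX and 58.1 and 57.3 under DMSO. MSMO1, a sterol C4 demethylase, was at 284 and 258, 125 and 130, and 114 and 105 CPM in that order. FDFT1, squalene synthase, was at 1242 and 1247, 685 and 694, and 670 and 685 CPM. In these genes VXN was high, and BIX lay close to DMSO by comparison. ACAT2, which makes the first intermediate, was at 330 and 314 against 163 and 169 CPM (0.96 ± 0.037). It was below its DMSO level of 202 and 195 CPM under BIX and above it under VXN.

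Regulators of the pathway went both ways. INSIG1, which holds SREBP in the endoplasmic reticulum, was higher, at 239 and 240 against 101 and 98.6 CPM (log2 1.26 ± 0.04). The 2 lower genes of the list were SREBF2 and SCAP. SREBF2, the gene of SREBP2, was at 467 and 502 CPM under VXN, 532 and 523 under BIX and 426 and 436 under DMSO, so both compounds lay above DMSO and BIX was the higher (log2 -0.12 ± 0.032). SCAP, the escort protein of SREBP, was at 128 and 132 against 151 and 138 CPM (-0.16 ± 0.042). The call of SREBF2 was lost without VXN replicate 1 (edgeR adjusted p = 0.156) and that of SCAP without BIX replicate 1 (0.208). PMVK, a kinase of the mevalonate pathway, was not called, at -0.15 ± 0.071.

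Cholesterol export genes went both ways. Of 15 LXR targets and export genes 5 were lower (ABCA1, ABCG1, MYLIP, LPCAT3 and SREBF1) and 1 was higher (NPC1), with a median of 0.0066 that turned to -0.017 with upper-quartile factors. ABCA1, the exporter of cholesterol to apolipoprotein A-I (chromosome 9, 104781006 to 104928155), was at 5.2 and 6.6 CPM under VXN, 13.4 and 13.8 under BIX and 14.5 and 15.3 under DMSO. ABCG1, an exporter to high-density lipoprotein, was at 1.08 and 2.14, 4.79 and 3.6, and 3.46 and 3.53 CPM. VXN was the low group for both, by 2.29-fold and 2.6-fold against BIX (edgeR adjusted p = 1.92e-11 and 3.91e-06). MYLIP, a ligase that marks the LDL receptor for decay, was at 27.1 and 31.9 against 36.9 and 38.6 CPM. NPC1, the lysosomal cholesterol transporter, was at 53.6 and 55.9 against 38.3 and 42.5 CPM. The calls of LPCAT3 and SREBF1 were lost without VXN replicate 1 (edgeR adjusted p = 0.37 and 0.0666) or BIX replicate 1 (0.0909 and 0.465), which leaves 3 lower genes in the list. Without BIX replicate 1 a count of 3 was higher in place of 1.

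**Figure D4:**
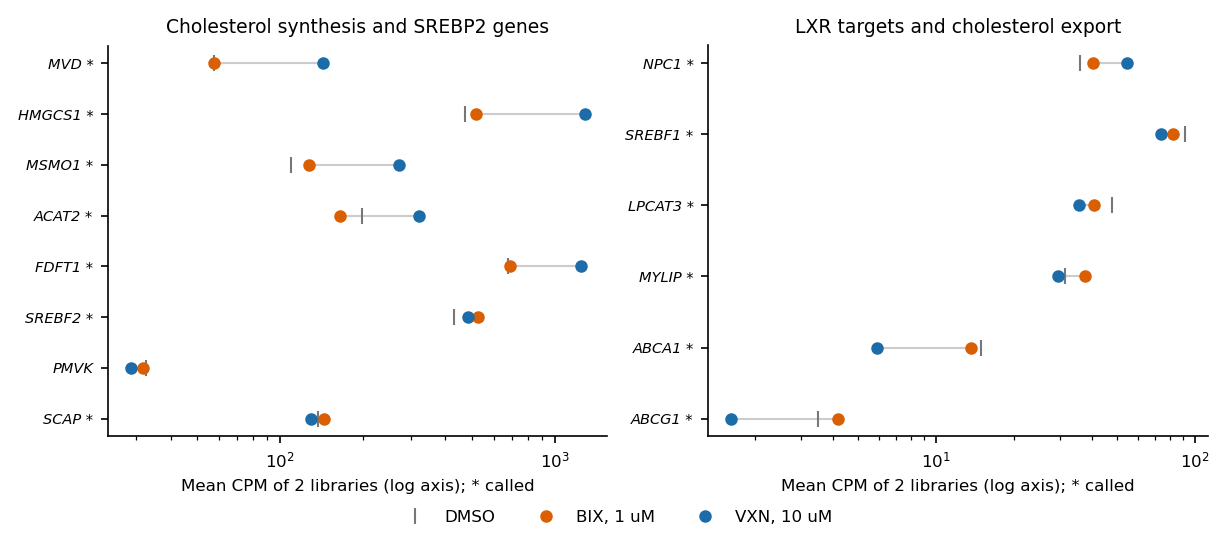
The plot of sterol genes gives mean CPM of 2 libraries on a log axis for 8 genes of the cholesterol synthesis list (left) and 6 of the LXR and export list (right) that the text names, with orange for BIX, blue for VXN and a grey tick for DMSO; stars mark called genes. Blue lies right of orange for MVD, HMGCS1, MSMO1, ACAT2 and FDFT1, and left of it for ABCA1 and ABCG1.

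Fatty acid genes were split. Of 17 genes 10 were higher and 2 lower, with a median of 0.16. The desaturase genes SCD and FADS2 were at 2166 and 2262 against 1560 and 1584 CPM, and at 986 and 1007 against 700 and 678 CPM. ACLY, which makes cytosolic acetyl-CoA, was at 733 and 791 against 578 and 588 CPM. The acetyl-CoA carboxylase genes ACACA and ACACB, of the committed step, went the other way. ACACA was at 151 and 159 CPM under VXN, 219 and 228 under BIX and 181 and 192 under DMSO (log2 -0.52 ± 0.038), with VXN below DMSO and BIX above. ACACB differed by -0.46 ± 0.093.

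The mitochondrial genome encodes 13 mRNAs, all for subunits of the respiratory chain and ATP synthase. All 13 were higher under VXN than under BIX, from 0.44 to 0.97 on the log2 scale, with a median of 0.65. They took 3.1% and 3.08% of gene counts under VXN, 1.99% and 1.97% under BIX and 1.45% and 1.46% under DMSO. The mitochondrial rRNAs took 0.315% and 0.274%, 0.331% and 0.337%, and 0.263% and 0.274% in the same libraries. So the mRNA shares stood in the order DMSO, BIX and VXN, and the rRNA shares of the compounds did not follow that order. MT-ND4, a subunit of complex I, was at 3828 and 3948 CPM under VXN, 2367 and 2303 under BIX and 1401 and 1396 under DMSO. MT-ND5, of the same complex, was at 1048 and 1106, 796 and 796, and 465 and 466 CPM, the smallest difference between the compounds (0.44 ± 0.029). MT-ATP6, of ATP synthase, had the largest, at 3249 and 3239 against 1732 and 1582 CPM (0.97 ± 0.029). Reads of MT-ATP6 may also fall on a nearly identical sequence in the nuclear genome.

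The nuclear genes of the same organelle showed smaller differences. Of 24 mitochondrial transcription and RNA factors 4 were higher (TWNK, FASTKD1, GRSF1 and TBRG4), 1 was lower (LRPPRC) and 19 were not called. TWNK, the mitochondrial DNA helicase, was at 53.3 and 50.7 against 44.5 and 42.9 CPM. LRPPRC, which stabilises mitochondrial mRNAs, was at 280 and 263 against 299 and 306 CPM. FASTKD1, GRSF1 and TBRG4 lost their calls when single libraries were left out (edgeR adjusted p up to 0.374, 0.151 and 0.433), and LRPPRC lost its call with the gene length trend removed in a fit of the 6 t-hESC libraries alone (0.13, against 0.00184 in those libraries with the trend left in). Without VXN replicate 1 the count of 4 became 2. Of 25 nuclear genes of oxidative phosphorylation 20 were not called, and 4 were higher: COX6C, UQCRFS1, SDHB and COX5A, at most by 0.19 on the log2 scale. UQCRC1 was lower by -0.11 ± 0.038. Without VXN replicate 1 that count became 2, and without BIX replicate 1 it became 1 and the call of UQCRC1 was lost (edgeR adjusted p = 0.516), as it was without either VXN library (0.0733 and 0.076).

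Glycolysis splits glucose to pyruvate in the cytosol. Of 22 glycolytic genes 17 were lower under VXN, 1 was higher and 4 were not called, with a median of -0.19. HK2, a hexokinase that traps glucose in the cell, was at 90.5 and 92.3 CPM under VXN, 140 and 141 under BIX and 127 and 125 under DMSO. PFKFB4, which sets the level of an activator of phosphofructokinase, was at 34.2 and 36.1, 56.8 and 55.8, and 49.1 and 48.7 CPM. PGK1, which makes ATP in the pathway, was at 559 and 561, 829 and 854, and 731 and 734 CPM. In each the order was VXN, DMSO and BIX from low to high, with no overlap. PKM, pyruvate kinase, had the same order at 736 and 741, 1119 and 1089, and 929 and 954 CPM (log2 VXN minus BIX -0.58 ± 0.028). PGK1 and PKM have pseudogene copies that could share reads. LDHA, which reduces pyruvate to lactate, was at 77.9 and 79.8 CPM against 102 and 106 under BIX, with DMSO at 113 and 112. The exception was the glucose transporter gene SLC2A3, at 1042 and 1075 CPM under VXN, 839 and 856 under BIX and 775 and 770 under DMSO (0.32 ± 0.03).

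Genes of the hypoxia response, which HIF factors induce when oxygen is low, were lower in 9 of 20 cases and higher in 3, with a median of -0.18. STC1 belongs to them. BNIP3, a mitophagy receptor gene, was at 85.6 and 80.4 CPM under VXN, 131 and 134 under BIX and 112 and 111 under DMSO. SLC16A3, the lactate exporter, was at 17.1 and 19, 32.6 and 30.8, and 24.6 and 26.4 CPM. P4HA2, a collagen prolyl hydroxylase, was at 13.5 and 12.2 against 18.4 and 17.7 CPM. BNIP3 and SLC16A3 had DMSO between the compounds, and the P4HA2 level under VXN lay close to DMSO (12.2 and 14.2). VEGFA, the vascular growth factor, was higher, at 36.4 and 41.9 against 30.3 and 31.8 CPM (0.34 ± 0.068).

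Basement membranes are sheets of laminin, type IV collagen, nidogen and perlecan under epithelia. Of 22 genes of basement membrane and fibronectin 15 were lower under VXN and none was higher, with a median of -0.25. FN1, fibronectin (chromosome 2, 215360865 to 215436068), was at 74.9 and 79.1 CPM under VXN, 132 and 140 under BIX and 65.2 and 62.7 under DMSO. VCAN, the proteoglycan versican, was at 154 and 160, 266 and 268, and 161 and 164 CPM. For both genes BIX was the group that stood apart, and the compounds differed by 1.76-fold for FN1 (log2 -0.82 ± 0.048) and by -0.77 ± 0.037 for VCAN. HSPG2, perlecan, was at 79.6 and 87.5 CPM under VXN, 121 and 111 under BIX and 50 and 50.9 under DMSO. FRAS1, a protein of the epithelial basement membrane, was at 55.6 and 59.8, 83.2 and 80.4, and 44.6 and 45.2 CPM. HSPG2 and FRAS1 were above DMSO under both compounds, further under BIX. HMCN1, hemicentin, was at 9.21 and 11.2, 21.2 and 21.1, and 8.35 and 9.33 CPM.

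Against DMSO, 16 of the 22 were higher and none lower under BIX, where 10.9% of tested genes were higher, and 11 were higher and 2 lower under VXN, where 14.5% of tested genes were higher and 14.6% lower. The 2 comparisons share the DMSO libraries, so they are set side by side only. These are long genes, with a median length on the genome of 104571 bases against 24603 for all tested genes. With the length trend removed the median of the list was -0.21.

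Collagen genes were lower in 10 of 23 cases and higher in 2 (COL9A3 and COL2A1), with a median of -0.19. They are long genes too, with a median length on the genome of 158195 bases. With the length trend removed in the 6 t-hESC libraries the median of the list was -0.18. COL5A2, a fibrillar collagen gene (chromosome 2, 189031898 to 189441111), was at 30 and 33.3 CPM under VXN, 68 and 67.1 under BIX and 43.2 and 40.4 under DMSO. COL1A2, of type I collagen, was at 38.6 and 39.7, 71.8 and 67.7, and 43.3 and 39.3 CPM. BIX was high for both, and VXN lay below DMSO for COL5A2 (log2 -1.09 ± 0.063 between the compounds). COL2A1, the cartilage collagen, was at 99.4 and 101 against 83.2 and 77.3 CPM. The summed fibroblast markers given above include COL1A1 and COL1A2, so that sum is not separate from the collagen genes. Of the other markers, PDGFRB was at 14.7 and 16.3 CPM under VXN against 18.3 and 17.5 under BIX, and S100A4 at 24.8 and 24.3 against 27.2 and 27.8. FAP was at 0 in all 4 libraries, and DCN and LUM were at 0 in both VXN libraries and in 1 BIX library each. The part of fibroblasts in the result was not tested. POSTN, another fibroblast marker, was at 1.2 and 0.508 against 2.52 and 2.05 CPM, a call lost without VXN replicate 2 (edgeR adjusted p = 0.0715). Of the 8 fibroblast markers tested 2 were lower and 1, the transcription factor gene TWIST2, was higher, at 9.81 and 8.18 against 6.5 and 6.53 CPM (0.46 ± 0.14). The call of TWIST2 was lost without VXN replicate 1 (edgeR adjusted p = 0.219), BIX replicate 1 (0.0805) or BIX replicate 2 (0.0607).

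OCT4 (POU5F1), SOX2 and NANOG are the transcription factors that hold pluripotency. Of 26 pluripotency genes 11 were lower under VXN, 5 were higher and 10 were not called, with a median of -0.085. SOX2 (chromosome 3, 181711925 to 181714436) was at 214 and 228 CPM under VXN, 307 and 304 under BIX and 282 and 270 under DMSO. VXN was below DMSO and BIX above it, and the difference was -0.47 ± 0.036 (edgeR adjusted p = 4.28e-17). POU5F1 was at 1554 and 1534, 1736 and 1646, and 1702 and 1673 CPM (-0.13 ± 0.029). NANOG was at 68.8 and 69.8, 59.7 and 61.9, and 53.3 and 51.1 CPM, above DMSO under both compounds. The higher level of NANOG under VXN (0.19 ± 0.055) lost its call without BIX replicate 1 (edgeR adjusted p = 0.0932), under DESeq2 (adjusted p = 0.128) and with the gene length trend removed (edgeR adjusted p = 0.0846). Pseudogenes much like POU5F1 and NANOG may have taken some of their reads.

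ESRG, a long noncoding RNA gene expressed in pluripotent cells, was at 117 and 119 CPM under VXN, 219 and 221 under BIX and 155 and 150 under DMSO (log2 -0.90 ± 0.04). TDGF1, the Nodal co-receptor, was at 179 and 166 against 264 and 264 CPM, with DMSO at 276 and 269. TERF1, a telomere protein gene, was at 180 and 165 against 252 and 262 CPM, and PODXL, a sialomucin that carries pluripotency epitopes, at 866 and 917 against 1201 and 1243 CPM. In TDGF1 VXN was the group that stood apart, and in ESRG, TERF1 and PODXL it lay below DMSO with BIX above.

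Early germ layer genes were higher in 6 of 26 cases and lower in 2 (NPTX1 and MAP2). SOX9, a factor of neural crest and cartilage, was at 37 and 36.6 CPM under VXN, 16.8 and 16 under BIX and 14.6 and 15.1 under DMSO. The forebrain factors LHX5, LHX2 and SIX3 were higher by 0.93 ± 0.16, 0.81 ± 0.12 and 0.65 ± 0.11. NPTX1, a secreted pentraxin of neurons, was at 1.38 and 1.41 CPM under VXN, 28.9 and 30.5 under BIX and 15.6 and 15.1 under DMSO, and it moved apart from DMSO in opposite directions under the compounds. MAP2, which lies among the neural markers too, differed by -0.28 ± 0.068, and DCX, a neuronal migration gene of the marker list, was at 2.21 and 2.03 against 4.67 and 5.65 CPM. Of the 10 neural markers tested, these 2 were lower and the other 8 were not called. Among the 8, ELAVL3 lay the other way, at 3.29 and 4.06 CPM under VXN against 2.96 and 2.5 under BIX. The summed neural markers were 523 and 534 CPM against 546 and 551.

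Of 28 genes of the Nodal and TGF-beta pathway 6 were higher and 6 lower. SMAD7, the inhibitory SMAD, was at 46.6 and 48.8 against 27.4 and 27.6 CPM, ID3, a target of BMP signals, at 103 and 104 against 70.8 and 69 CPM, and TGFB1, the ligand, at 24.3 and 24.7 against 19.2 and 15.1 CPM. ID3 under VXN lay near its DMSO level of 95.7 and 99.3 CPM. Among genes of retinoic acid, a morphogen made from vitamin A, 3 of 17 were higher (CYP26A1, RARA and RARG) and 5 lower. CYP26A1, which degrades retinoic acid, was at 10 and 11.3 CPM under VXN, 6.94 and 6.75 under BIX and 18.5 and 18.5 under DMSO, below DMSO under both compounds. ALDH1A1, which makes it, was at 1.32 and 1.19 against 3.72 and 4.18 CPM (log2 -1.65 ± 0.24), and DHRS3, which reduces retinal, at 2.93 and 2.82 against 6.18 and 5.5 CPM (-1.03 ± 0.17). The count of 5 became 3 without VXN replicate 2. Wnt targets were higher in 3 of 19 cases and lower in 4. The 3 became 1 without VXN replicate 2, and the 4 became 2 without VXN replicate 1 or BIX replicate 1.

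The enzymes that BIX is known to inhibit differed slightly at the RNA level. EHMT1 (chromosome 9, 137619005 to 137836127) was at 117 and 119 CPM under VXN, 143 and 138 under BIX and 147 and 141 under DMSO. EHMT2 (chromosome 6, 31879759 to 31897698) was at 172 and 178, 219 and 201, and 207 and 204 CPM. For both VXN was below the other groups, which overlapped each other, by -0.25 ± 0.041 and -0.26 ± 0.039 against BIX (edgeR adjusted p = 1.91e-06 and 1.63e-07). Of 27 genes of H3K9 methylation and heterochromatin protein 1, 14 were lower under VXN and none higher, with a median of -0.12. Their median length on the genome was 55673 bases, against 24603 for all tested genes. With the length trend removed in the 6 t-hESC libraries the median of the list was -0.10. The demethylase genes KDM4B and KDM3B were at 56.1 and 57.3 against 76.6 and 75.7 CPM, and at 164 and 179 against 210 and 221 CPM. CBX5, heterochromatin protein 1 alpha, was at 283 and 307 against 342 and 347 CPM. KDM4B, KDM3B and CBX5 lay nearer to DMSO under VXN than under BIX, with DMSO at 59 and 60.9, 183 and 180, and 275 and 284 CPM.

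H3K4 methyltransferase genes were lower in 8 of 18 cases and higher in none, with a median of -0.11. KMT2D (chromosome 12, 49018978 to 49060794) was at 45 and 53.7 CPM under VXN, 68.5 and 69.7 under BIX and 29 and 28.4 under DMSO. KMT2C was at 22 and 24, 32.6 and 35.9, and 19.2 and 16.9 CPM, and KMT2A at 46.5 and 51.8, 56.3 and 59.2, and 31.5 and 33 CPM. These 3 catalytic subunit genes stood in the order DMSO, VXN and BIX with no overlap (log2 VXN minus BIX -0.48 ± 0.058 for KMT2D). The cofactor gene HCFC1 had that order too, at 121 and 129, 156 and 143, and 103 and 108 CPM. The call of KMT2A was lost without VXN replicate 1 (edgeR adjusted p = 0.104), which left 4 lower genes in the list, and 5 were left without DMSO replicate 2.

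Among DNA methylation genes DNMT3B, a de novo methyltransferase, was at 620 and 657 CPM under VXN, 837 and 814 under BIX and 869 and 877 under DMSO. UHRF1, which guides maintenance methylation, was at 46.2 and 45.8, 60.2 and 53.2, and 74.1 and 73.6 CPM. VXN was lowest for both. DNMT3A was lower too, by -0.18 ± 0.044, a call lost without VXN replicate 1 (edgeR adjusted p = 0.0947) or BIX replicate 1 (0.0559). The glycosylase gene MBD4 was higher, at 47.7 and 43 against 37.4 and 35.7 CPM, and so was MBD3 (0.14 ± 0.049), whose call was lost without BIX replicate 2 (edgeR adjusted p = 0.369) or VXN replicate 1 (0.12). The other 10 of 15 genes were not called.

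Polycomb genes, which silence development genes by H3K27 methylation, were higher in 9 of 28 cases and lower in 3, with a median of 0.09. EPOP and PHF1, accessory subunits of Polycomb complex 2, were at 22 and 25.1 against 17 and 15.3 CPM and at 79.1 and 84.2 against 60.6 and 62.2 CPM. The count of 9 became 4 without BIX replicate 2 and 5 without VXN replicate 2, and the count of 3 became 1 without VXN replicate 1. None of 23 tested HOX genes was called by edgeR's quasi-likelihood test or by DESeq2, and 1 had an unadjusted p under 0.05. Without VXN replicate 2 a single HOX gene was called higher. Of 26 germline genes silenced by chromatin 7 passed the filter and 1, TEX15, was called (-0.46 ± 0.16), a call lost without BIX replicate 1 (edgeR adjusted p = 0.223) or either VXN library (0.0947 and 0.0826). Imprinted genes, expressed from 1 parental copy, were higher in 4 of 21 cases and lower in 4. PHLDA2, a growth-restraining gene of the placenta, was at 8.19 and 8.07 against 3.03 and 3.3 CPM, DLK1, a Notch ligand gene, at 202 and 198 against 152 and 140 CPM, and SNURF at 63.9 and 66 against 83.3 and 83.2 CPM. DMSO levels of PHLDA2 and DLK1 were 3.68 and 3.44 and 154 and 156 CPM, near those under BIX.

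Replication genes were lower under VXN. Of 32 G1/S and replication genes 16 were lower, 1 was higher and 15 were not called, with a median of -0.14. MCM2, of the replicative helicase, was at 154 and 164 CPM under VXN, 216 and 215 under BIX and 254 and 247 under DMSO. MCM4 was at 251 and 248, 320 and 321, and 380 and 391 CPM in that order. POLA1, the catalytic subunit of DNA polymerase alpha, was at 77.1 and 77, 98.6 and 103, and 116 and 109 CPM. These genes stood in the order VXN, BIX and DMSO with no overlap. The higher gene was RFC4 (0.13 ± 0.05), a call lost without VXN replicate 1 (edgeR adjusted p = 0.581), BIX replicate 1 (0.342) or DMSO replicate 1 (0.0586).

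Of 32 genes of G2 and mitosis 16 were lower and 4 higher, with a median of -0.11. The 4 higher genes, CDK1, AURKA, AURKB and UBE2C, differed by at most 0.16 on the log2 scale, and none was called without BIX replicate 1, while 2 were called without DMSO replicate 1. MKI67, the Ki-67 proliferation marker, was at 157 and 165 CPM under VXN, 204 and 214 under BIX and 132 and 130 under DMSO. CENPF, a kinetochore protein gene, was at 181 and 183, 244 and 242, and 185 and 182 CPM. Both were highest under BIX, and CENPF under VXN overlapped DMSO. BUB1, a spindle checkpoint kinase, was at 225 and 213 against 272 and 275 CPM, with DMSO at 277 and 285.

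Targets of p53, the DNA damage response factor, were higher in 10 of 26 cases and lower in 1, with a median of 0.14. The lower gene was XPC, of DNA repair (-0.16 ± 0.046), a call lost without BIX replicate 2 (edgeR adjusted p = 0.0656) and at 0.055 without VXN replicate 1. CDKN1A, the p21 cell cycle inhibitor, was at 119 and 120 CPM under VXN, 75.9 and 80.1 under BIX and 59.1 and 61.2 under DMSO. TNFRSF10B, a death receptor, was at 251 and 254, 201 and 213, and 160 and 157 CPM. Both stood in the order DMSO, BIX and VXN. BBC3, the PUMA death gene, was at 54.8 and 56.5 against 45.9 and 43.7 CPM, and MCL1, a survival gene of the BCL2 family, at 419 and 417 against 289 and 286 CPM (log2 0.54 ± 0.032). Of 15 BCL2 family genes 6 were higher and 3 lower, and the count of 6 became 3 without VXN replicate 1, BIX replicate 1 or BIX replicate 2. The death genes BCL2L11 and BMF were lower by -0.32 ± 0.093 and -0.28 ± 0.083, and both calls were lost without VXN replicate 1 (edgeR adjusted p = 0.146 and 0.128), that of BCL2L11 also without BIX replicate 2 (0.0639).

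ATF4 induces amino acid genes when translation initiation is restrained. Of 33 ATF4 targets and tRNA synthetases 16 were higher and 2 lower (DDIT4 and TARS1), with a median of 0.14. The call of TARS1 was lost without BIX replicate 2 (edgeR adjusted p = 0.0796). TRIB3, a pseudokinase of that response, was at 38.9 and 35 CPM under VXN, 22 and 19.2 under BIX and 24.9 and 22.7 under DMSO. ASNS, asparagine synthetase, was at 152 and 141, 109 and 112, and 113 and 117 CPM, and MTHFD2, of mitochondrial folate metabolism, at 235 and 228, 179 and 176, and 206 and 205 CPM. VXN was the high group for all 3. DDIT4, an inhibitor of mTORC1, was at 143 and 151 against 184 and 183 CPM. In the unfolded protein response 8 of 24 genes were higher, or 5 without BIX replicate 1, and 4 were lower. XBP1, its transcription factor, was at 122 and 117 against 91.1 and 88.7 CPM, and the chaperone genes CALR and HSP90B1 at 605 and 612 against 733 and 717 CPM and at 1091 and 1029 against 1219 and 1225 CPM.

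Cytosolic heat shock genes were called higher in 6 of 17 cases and lower in 2, with HSPA8, a constitutive HSP70, at 1434 and 1433 against 1216 and 1286 CPM, and HSP90AA1 at 1400 and 1326 against 1469 and 1501 CPM. The lower count became 1 without VXN replicate 2 or BIX replicate 2. Their DMSO levels were above both compounds, at 1568 and 1580 and at 2007 and 2010 CPM. The count of 6 became 3 with upper-quartile factors and 2 under DESeq2. It was 5 in the 6 t-hESC libraries alone and 3 there with the gene length trend removed. Of 23 targets of NRF2, the factor of the oxidative stress response, 7 were higher, or 4 without BIX replicate 1, and 3 were lower. Polyamines are small cations that bind RNA. SAT1, the enzyme that starts their breakdown (chromosome X, 23783173 to 23786210), was at 178 and 175 CPM under VXN, 82.7 and 85.6 under BIX and 85.5 and 86.5 under DMSO. SMOX, spermine oxidase, was at 22 and 24.3, 14.8 and 11, and 16.3 and 16 CPM. VXN alone was high for both, by 1.07 ± 0.042 and 0.83 ± 0.096. DOHH, which modifies the translation factor eIF5A, was higher as well, and SMS, spermine synthase, was lower by -0.10 ± 0.034, a call lost without VXN replicate 2 (edgeR adjusted p = 0.311) or BIX replicate 2 (0.247). The other 12 of 16 polyamine genes were not called. Lysosome and autophagy genes went both ways, 5 of 27 higher and 7 lower, with the autophagy gene WIPI1 at 59 and 59.4 against 35.8 and 36.9 CPM and the protease gene CTSB at 67.2 and 64.7 against 80.3 and 81.5 CPM.

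Metallothioneins bind zinc and copper. Of 11 tested genes of metallothionein and zinc transport the only call at these settings was of the zinc importer SLC39A14, lost without VXN replicate 2 (edgeR adjusted p = 0.0877). MT1E was at 0.957 and 1.07 CPM under VXN, 0.757 and 0.587 under BIX and 3.96 and 4.38 under DMSO. MT1X was at 6.58 and 6.26, 9.84 and 6.6, and 16.2 and 16.8 CPM, and was not called between the compounds (log2 -0.38 ± 0.15, edgeR adjusted p = 0.0528). Both compounds lay below DMSO, and the 95% interval of their own difference was -0.67 to -0.085. It was called without BIX replicate 2 (edgeR adjusted p = 0.00238) and under 4 other settings, among them upper-quartile factors (0.0379). How reads were divided among the similar metallothionein genes is uncertain.

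Ribosomal protein genes were higher in 14 of 32 cases and lower in none, by at most 0.18 on the log2 scale, with a median of 0.071. RPS27A was at 1060 and 1012 CPM under VXN, 905 and 925 under BIX and 1122 and 1118 under DMSO. RPL13 was at 1504 and 1471, 1347 and 1307, and 1546 and 1533 CPM. BIX was the low group for both, and many such genes have pseudogenes that could share reads. In the 6 t-hESC libraries alone 14 were higher and none lower, and with the gene length trend removed in those libraries 1 was higher and 4 were lower, with a median of -0.0098. Of 28 ribosome biogenesis and MYC target genes 11 were higher and 3 lower, with GNL3, a nucleolar GTPase, at 202 and 195 against 157 and 167 CPM, and CAD, of pyrimidine synthesis, at 166 and 177 against 225 and 213 CPM.

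Direction varied with genomic length, from a gene's first to its last base. The 11725 well expressed protein-coding genes were put into 5 classes of equal size by length. The shortest class (276 to 10621 bases) had 32% called higher under VXN and 6.91% lower. The longest class (97974 to 2304198 bases) had 5.97% higher and 31.7% lower. Median differences from the shortest to the longest class ran 0.092, 0.053, 0.012, -0.039 and -0.10, and Spearman's rho between difference and length was -0.34 across genes, which are not independent replicates. Against DMSO the medians of the shortest and longest classes were -0.085 and 0.11 under BIX and 0.014 and 0.0086 under VXN. The BIX libraries both showed the slope, with medians against the DMSO mean of -0.069 and -0.099 in the shortest class and 0.096 and 0.12 in the longest. The VXN libraries stood at 0.016 and 0.009, and at -0.0029 and 0.02. What lies behind the slope was not tested. The trend was removed in a fit of the 6 t-hESC libraries alone, which called 4315 genes, 2098 higher and 2217 lower, against 4754 in those libraries with the trend left in. Of the 4315 a count of 3758 were also called in the same direction in the fit of all 10 libraries, a comparison in which both the libraries and the trend differ.

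**Figure D5:**
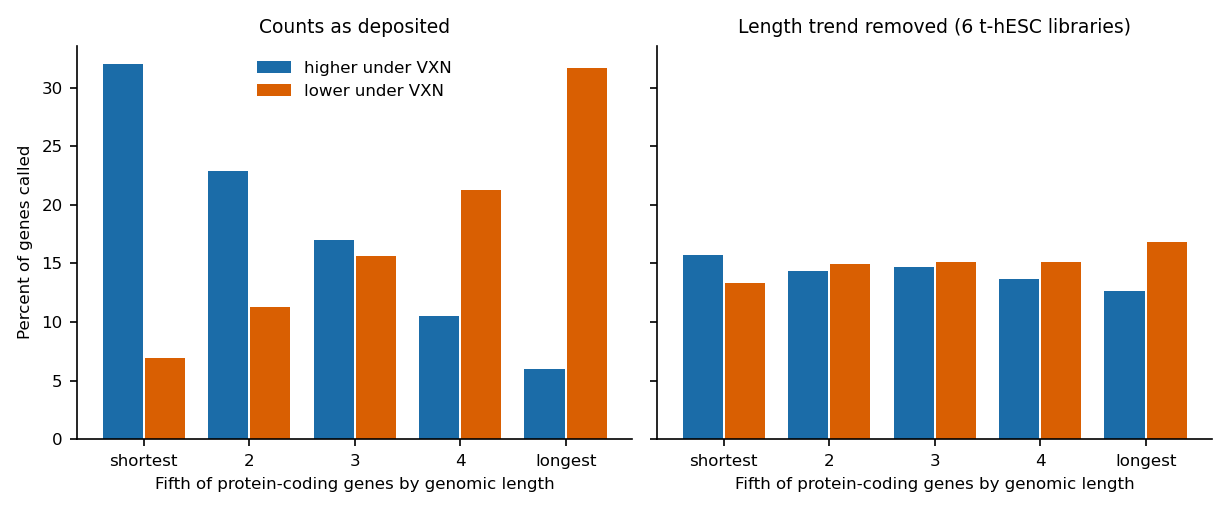
The plot of gene length gives the percent of protein-coding genes called higher (blue) or lower (orange) under VXN in each of 5 classes of genomic length, from the counts as deposited in the fit of all 10 libraries (left) and with the length trend removed in the 6 t-hESC libraries (right). On the left the higher share goes from 32% to 5.97% and the lower share from 6.91% to 31.7%, and on the right the bars are close to level.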

How the data were processed

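RNA of t-hESC and HT29 cells was sequenced from TruSeq RNA v2 libraries, a kit that does not mark strand. The authors deposited 1 table of raw counts per gene and repeat family; per the submitters' processing notes, the tools were STAR, fastp 0.20.1, DESeq2 1.34.0 and FastQC 0.11.9, with the build GRCh38. Neither the counting program nor the annotation release is given in the sources used here. The 1181 repeat rows, 4 value columns that match no sample and the authors' own comparisons were not used.

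Counts of the 10 libraries entered 1 fit in edgeR 4.0.16 (R 4.3.3, limma 3.58.1) with TMM factors, a filter at a minimum count of 10, robust quasi-likelihood F tests, the contrast VXN minus BIX and Benjamini-Hochberg adjustment over 22495 genes. SE is the log2 difference over the root of F. A count of 0 allows up to 3 counts, or 0.174 to 0.228 CPM in these 4 libraries (counting error only). In simulated counts for VXN against BIX over 22193 genes, 200 genes averaging 4 CPM or more were changed, 50 at each fold. This is far fewer than were called in the real counts, so recovery there may differ. Of these changes the fit recovered 46% at 1.2-fold, 82% at 1.5-fold and 100% at 2-fold and 4-fold. Of its calls 6.82% were false, in counts simulated without the trend with gene length that the real counts show. With a length trend simulated over 19831 genes and left in, edgeR made 1168 calls, 85% of them false. Any call outside the 200 changed genes counted as false, although the simulated trend also shifted genes by their length. With 1168 calls and 200 changed genes, most calls had to count as false. The 85% is therefore not an error rate for the real counts. With the simulated trend removed edgeR made 172 calls, 4.07% of them false. The share of false calls among the real ones was not tested. Alternatives included DESeq2 1.42.0, other scalings and filters, fewer libraries, a fold threshold and removal of the trend with gene length.

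Named genes were the 15 highest and 15 lowest called genes that averaged 4 CPM or more and had no overlap between the compounds, up to 5 genes with the smallest p per list (3 for markers), and EHMT1, EHMT2, KMT2D, POU5F1, NANOG, SOX2 and NPTX1. Genes outside that rule were named after their values were seen, among them MVD, MSMO1, LDHA, SREBF2, SCAP, MT-ND5, ACACB, DDIT4 and MAGED4B. The members and lists were chosen with earlier results of these data known. Symbols, coordinates and promoters came from RefSeq (GRCh38.p14) by gene identifier or symbol. A few genes are not reported here.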

Additional observations from a re-analysis of the deposited data

How the results depend on the processing

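DESeq2, which gave 16389 genes an adjusted p, called 2982 (1310 higher under VXN and 1672 lower), with 129 at 2-fold or more. A minimum count of 50 left 198 at 2-fold or more, since fewer genes of low counts were tested. A test against a 1.2-fold difference called 931 (526 higher, 405 lower, 220 at 2-fold or more). Leaving out each t-hESC library in turn gave 3651 to 4958 calls, 1850 to 2600 higher, 1801 to 2462 lower and 316 to 386 at 2-fold or more. Upper-quartile factors called 5102, with 43% of them higher in place of 50.9%. The trend with gene length was an alternative chosen after seeing the data. It was fitted to the 6 t-hESC libraries alone, where 16707 of 19896 tested genes have a known length, and 4315 genes were called. A set of 222 genes named in the text was followed through the settings. Most were picked in the main fit by large difference or small p, and the settings share libraries. That choice favours kept calls and kept directions. Of the 222 genes 216 were called. Of these, 168 kept their calls in every setting that tested them apart from the 1.2-fold test, and 116 in that one too. None reversed. Under DESeq2 218 of the 222 had an adjusted p, and 220 of the 222 did at a minimum count of 50. A gene without one was counted as kept in that setting. In the simulated data, at this depth, 46% of 1.2-fold changes were recovered among genes averaging 4 CPM or more. The cause of the lost calls was not tested.

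No pairing of samples by replicate number was seen. Deviations of same-numbered libraries from their group means correlated at -0.00013 for VXN with BIX and -0.0743 for BIX with DMSO. Counting noise is a large part of such deviations, so a weak pairing could go unseen. With the replicate number as a block over the 6 t-hESC libraries 4600 genes were called (2320 higher, 2280 lower, 333 at 2-fold or more), against 4754 in the same libraries with no block.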

Other observations

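Calls were not spread evenly over the kinds of gene. Of 15640 tested protein-coding genes 28.8% were called, against 10.6% of 4675 long noncoding RNA genes and 3.53% of 850 processed pseudogenes. They were counted with no cut on level. Of all tested genes 22.7% were called, and of those averaging 4 CPM or more 32.8%. The part of expression level in the shares by kind of gene was not tested. Among genes of any kind averaging 4 CPM or more, chromosome 19 had 25.9% of 898 genes higher under VXN and 9.47% lower, where all 13835 genes of that level had 16.8% higher and 16.0% lower. Chromosome 13 stood the other way, with 12.1% of 214 genes higher and 25.7% lower, and so did chromosome 21, with 9.65% and 22.8% of 114. These shares are descriptions, with no test. The chromosome shares come from the fit with the gene length trend left in, and the part of gene length in them was not tested.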
